A study of Homo sapiens with 2 samples.

Results

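The cytosolic ribosomal protein genes encode the protein components of the ribosome that translates nuclear mRNAs. They were found by symbol: RPL or RPS followed by a number, with an optional A, L or X, together with RPLP0, RPLP1, RPLP2 and RPSA. This gave 79 of the 23024 genes listed in either library, 48 of the large and 31 of the small subunit. All 79 are annotated as protein coding in GENCODE 29 and all 79 were listed in both libraries. The data are 2 RNA sequencing libraries made from total RNA of A549, a long-established cell line from a human lung adenocarcinoma. The first came from cells stably transduced with a retrovirus carrying ATOH8, a basic helix-loop-helix transcription factor gene, and the second from cells stably transduced with the empty retroviral vector. Both cultures carried an integrated retrovirus and grew in the same serum-containing medium. Whether the cells were a pool or a clone, and which promoter drove ATOH8, is information that the sources used here do not give.

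A ribosome holds 1 copy of nearly every ribosomal protein, so these genes are expressed together at high levels in all growing cells. The proteins are made in the cytoplasm, carried into the nucleolus by dedicated chaperones and built onto ribosomal RNA that RNA polymerase I transcribes. Most of their mRNAs begin with a C followed by a tract of C and U, the terminal oligopyrimidine (TOP) sequence, through which mTORC1 and LARP1 control their translation.

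Start sites of some genes at the extremes of the comparison are shown because this shared feature was not part of how the genes were found. The lines give 15 bases before and 15 bases from each start listed by RefSeq (GRCh38.p14), and capitals mark an unbroken run of C and T that opens with C at the start. RPL13A, RPL13, RPLP0 and RPL10 had the 4 highest folds of ATOH8 over vector. RPS27A, RPS26, RPL31, RPL14 and RPS29 were among the 5 lowest of their subunits, and RPL10L is a paralog that neither library listed. RPL7, RPL6, RPL23, RPS24 and RPS15A, also among the 5 lowest of their subunits, are not shown. The lines therefore give no share of low members with such a run.
RPL13A (chr19:49487593-49487622, plus strand): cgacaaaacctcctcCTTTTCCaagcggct
RPL13 (chr16:89560667-89560696, plus strand): ttgcggggccgcttcCTTTCCgctcggctg
RPLP0 (chr12:120201097-120201126, minus strand): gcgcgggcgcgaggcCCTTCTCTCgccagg
RPL10 (chrX:154398362-154398391, plus strand): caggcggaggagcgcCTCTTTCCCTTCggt
RPS27A (chr2:55232673-55232702, plus strand): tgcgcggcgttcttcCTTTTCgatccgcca
RPL31 (chr2:101002274-101002303, plus strand): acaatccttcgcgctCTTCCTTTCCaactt
RPL14 (chr3:40457324-40457353, plus strand): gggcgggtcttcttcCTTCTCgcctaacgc
RPS26 (chr12:56041903-56041932, plus strand): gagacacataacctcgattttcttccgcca
RPS29 (chr14:49598696-49598725, minus strand): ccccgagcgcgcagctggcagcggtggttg
RPL10L (chr14:46651767-46651796, minus strand): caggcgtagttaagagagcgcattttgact

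The RefSeq table matched 62 of the 79 genes. A C followed by at least 4 bases that are all C or T stood at a listed start of 46 of the 62 (74.2%), 28 of 38 large and 18 of 24 small subunit genes, against 5.14% of the 27305 genes in the table. Where a gene had several listed starts, any of them counted. The 16 without it at a listed start included RPS26, RPS28, RPS29, RPL3, RPL4 and RPL6. Their listed start can differ from the one used in these cells. Over the whole 300-base promoter window (250 bases before the start and 50 from it, both strands), CCGGAAG, the core of an ETS factor motif, was found in 22 of the 62 genes (35.5%) and in 12.2% of all genes. CANNTG, the E-box that basic helix-loop-helix factors bind, was found in 31 of the 62 (50%) and in 73.1% of all genes, and TATAAA in 5 of the 62 (8.06%) and in 14.0% of all genes.

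ATOH8 itself stood at 182 FPKM in the ATOH8 library and 0.786 FPKM in the vector library, which matches the labels. FPKM, the unit of all levels here, are fragments counted per length of transcript and per size of library, "with ATOH8" and "with vector" name the 2 libraries, and with 1 library per group every difference compares these 2 libraries and has no error or p-value. The ATOH8 library held 20870 genes that summed to 502502 FPKM, and the vector library 20966 genes that summed to 540101 FPKM. The sources used here do not give read depth, and the low FPKM gave no whole-read steps from which to recover it. Of 11 epithelial and A549 marker genes, 9 had at least 1 FPKM in each library, which with the other 2 summed to 13337 FPKM in the ATOH8 and 15150.2 FPKM in the vector library, while KRT19 (0.070 FPKM with ATOH8, 0.219 FPKM with vector) and the lung factor NKX2-1 (0.410 FPKM with ATOH8, 0.218 FPKM with vector) were near 0. Fibroblast markers summed to 0.763 FPKM with ATOH8 and 0.756 FPKM with vector over 5 genes and endothelial markers to 0.082 FPKM over 4 genes in the ATOH8 library, with none of the 4 listed in the vector library. Of 5 leukocyte markers, CD68 alone reached 1 FPKM (15.4 FPKM with ATOH8, 2.14 FPKM with vector), and CD3E and MS4A1 were listed in neither. Of 8 alveolar type II markers, ABCA3 alone reached 1 FPKM (12.02 FPKM with ATOH8, 5.19 FPKM with vector). The part of CD68 and ABCA3 in any result was not tested.

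Ribosomal protein genes were among the most abundant in both libraries. With RPL3L set aside, which was near 0, 78 genes averaged at least 1 FPKM over the libraries. Their median level was 648 FPKM in the ATOH8 library, where 21 of them reached 1000 FPKM, and 885 FPKM in the vector library, where 32 did. The median of all 12351 genes that averaged at least 1 FPKM, called all genes from here on, was 7.24 FPKM in the ATOH8 and 9.70 FPKM in the vector library. The members took 12.7% of all FPKM in the ATOH8 library, against 14.1% in the vector library. Transcripts of the mitochondrial genome took 24.2% of the ATOH8 total and 16.5% of the vector total, or 14.4% of the vector total without MT-CO1, which the ATOH8 library did not list. With all mitochondrial transcripts left out, ribosomal protein genes made up 16.8% of each library, so the difference in share was not seen without them.

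**Figure D1:**
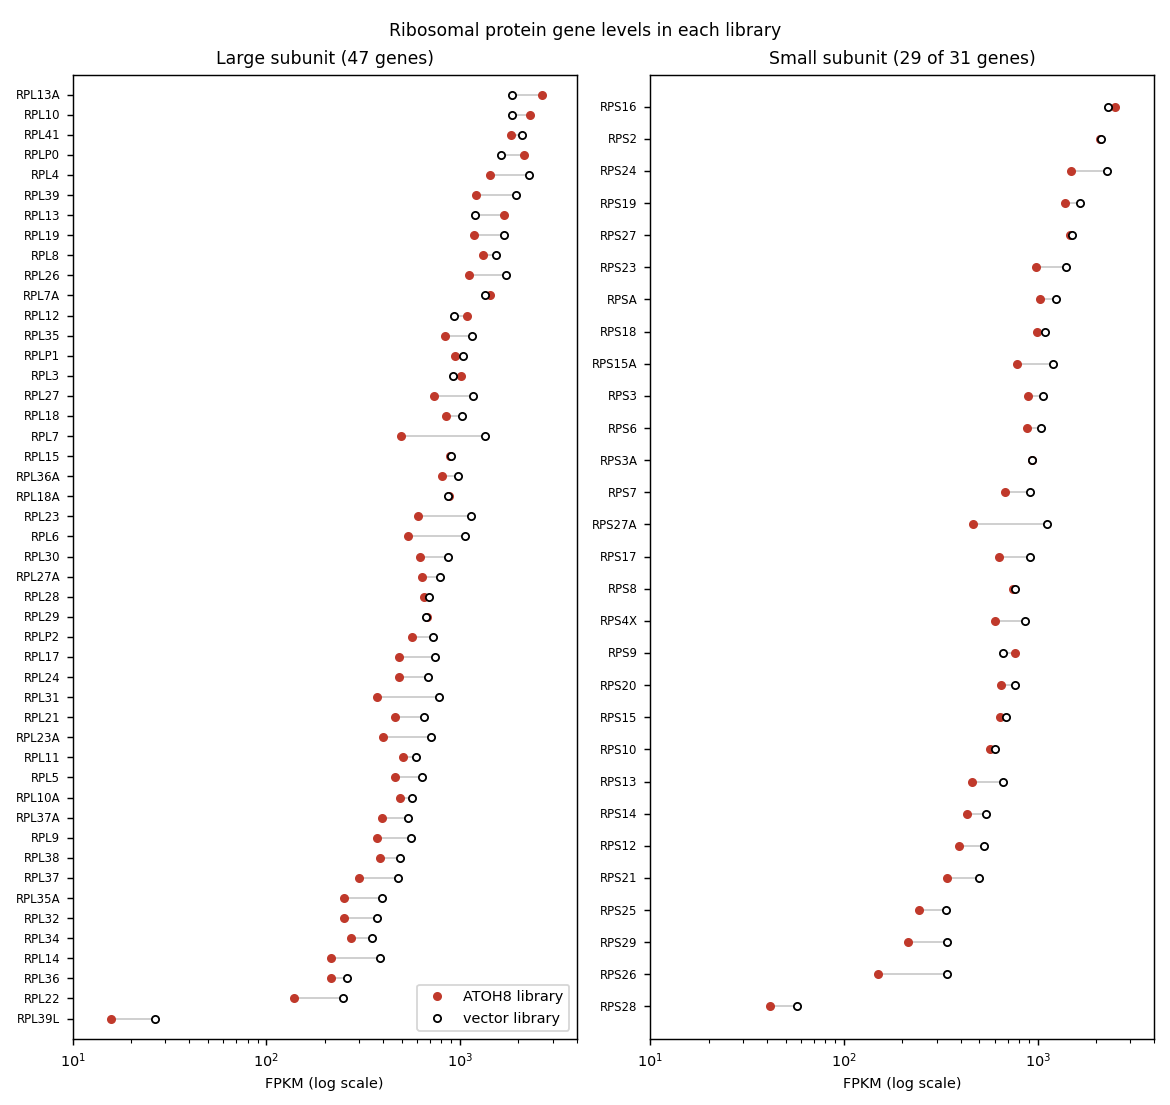
FPKM of 76 of the 78 ribosomal protein genes that averaged at least 1 FPKM, on a log axis, in the ATOH8 library (filled) and the vector library (open), large subunit left and small subunit right, ordered by mean level. Most genes stood lower in the ATOH8 library on the deposited scale, RPL7 and RPS27A furthest, while RPL13A, RPL10, RPLP0 and RPL13 stood higher.

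On the deposited FPKM scale, 65 of the 78 genes were lower and 13 higher in the ATOH8 library, with a median log2 fold of -0.36 (ATOH8 over vector, after adding 1 FPKM to each value). The median over all 12351 genes was -0.30, and over the 8249 genes that averaged at least 5 FPKM it was -0.36. Set against that last value, called the median gene from here on, the median ribosomal protein gene was at 0.00, with 39 genes above and 39 below. The direction of the family therefore rested on the scale, lower as deposited and level with the median gene once centred, and folds are given relative to the median gene unless a sentence says otherwise. In bulk RNA, fewer cells and less RNA per cell cannot be told apart. The quartiles of the members' folds were -0.24 and 0.27, beside -0.47 and 0.61 over all genes. The standard deviation of the log2 folds across genes was 0.39 for the 77 members without the tissue-restricted paralogs RPL3L and RPL39L. It was 0.84 for all genes, and 0.80 for 138 other genes that averaged at least 300 FPKM. Those 138 had a median relative fold of 0.34 (-0.02 as deposited, 0.21 after a correction for GC content). The 70 members of at least 300 FPKM had 0.04 (-0.32 as deposited, -0.09 after that correction). Members of high level thus lay lower than other genes of high level on each scale.

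Few members were 2-fold apart. As deposited, 4 of the 78 were at least 2-fold lower, RPL7, RPS27A, RPS26 and RPL31, and 0 at least 2-fold higher, beside 19.0% of all genes that were lower and 6.24% that were higher. Relative to the median gene, RPL7 alone was 2-fold lower and 0 were 2-fold higher, beside 9.47% and 12.8% of all genes. After a correction of the folds for GC content, 0 were 2-fold lower or higher, beside 5.84% lower and 8.34% higher over the 12319 genes with a known transcript. The authors' deposited table of differential expression marked 3 members down and 0 up, beside 14.7% of all genes marked down and 5.17% marked up. In the authors' deposited table the log2 ratio was -1.44 for RPL7 (q = 8.9e-04), -1.26 for RPS27A (q = 6.8e-04) and -1.05 for RPL31 (q = 0.0230), and RPS26 was not in that table. Those q-values compare 2 libraries and not the conditions.

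RPL7 (ENSG00000147604, chromosome 8, 73290267 to 73295789, minus strand, GRCh38), which encodes a large subunit protein, was at 493 FPKM in the ATOH8 library and 1342 FPKM in the vector library. This was 0.367 times the vector level and a relative log2 fold of -1.08, the lowest of the 78. In order of abundance among the members it held place 51 in the ATOH8 library and place 18 in the vector library. GENCODE 29 annotates 61 pseudogenes named after RPL7. Of these, RPL7P1 stood at 4.40 FPKM with ATOH8 and 11.9 FPKM with vector and RPL7P9 at 2.98 FPKM with ATOH8 and 6.88 FPKM with vector, so they were lower as well. How far reads of RPL7 and these copies were exchanged was not tested.

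RPS27A (ENSG00000143947, chromosome 2, 55231903 to 55235853, plus strand) encodes a fusion of ubiquitin with a protein of the small subunit head. It was at 463 FPKM in the ATOH8 library and 1109.9 FPKM in the vector library, a relative log2 fold of -0.90 and 0.417 times the vector level. RPS26 (ENSG00000197728, chromosome 12, 56041351 to 56044697, plus strand), which lines the mRNA exit channel, was at 150.5 FPKM in the ATOH8 library and 339.6 FPKM in the vector library (-0.81). RPL31 (ENSG00000071082, chromosome 2, 101001715 to 101024032, plus strand), at the rim of the exit tunnel, was at 374 FPKM in the ATOH8 library and 774 FPKM in the vector library (-0.69). RPS26 and RPL31 each have 30 annotated pseudogenes, and the locus given for RPL31 spans 8 other genes, so its estimate could hold reads of neighbours.

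At the other end, RPL13A (ENSG00000142541, chromosome 19, 49487554 to 49492308, plus strand) was at 2637 FPKM in the ATOH8 library and 1849.5 FPKM in the vector library, a relative log2 fold of 0.87. Its locus spans 5 other genes besides the 4 small nucleolar RNA genes inside it, and reads could be shared among them. RPL13A was the most abundant member in the ATOH8 library and the eighth in the vector library. RPL13 (chromosome 16, 89560657 to 89566828, plus strand) was at 1691 FPKM in the ATOH8 library and 1189 FPKM in the vector library, also 0.87. Both are structural proteins of the large subunit, and with RPL10, RPLP0 and RPL12 they were the 5 highest of their subunit. RPS9 (759.9 FPKM with ATOH8, 659 FPKM with vector, 0.56), RPS16 (2504 FPKM with ATOH8, 2309 FPKM with vector, 0.48) and RPS3A (937 FPKM with ATOH8, 937 FPKM with vector, 0.36) were among the 5 highest of the small subunit. RPS3A had nearly the same FPKM in both libraries.

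The order of abundance was much the same in both libraries. Across the 77 members without paralogs, the log2 levels had a Pearson correlation of 0.94 and a Spearman correlation of 0.90, given as a description, since the points share 2 libraries. RPL10, RPL13A, RPL41, RPLP0 and RPL4 were the most abundant of the large subunit by mean level. RPL41, the smallest ribosomal protein, was at 1823 FPKM in the ATOH8 and 2083 FPKM in the vector library (0.17), and RPL4, whose extension lines the exit tunnel, at 1421 FPKM with ATOH8 and 2274 FPKM with vector (-0.32). RPS16, RPS2, RPS24 and RPS19 were among the 5 most abundant of the small subunit. RPS2 was at 2094 FPKM in the ATOH8 and 2127 FPKM in the vector library (0.34), RPS24 at 1482 FPKM with ATOH8 and 2289 FPKM with vector (-0.27), and RPS19, a protein of the head, at 1380.5 FPKM with ATOH8 and 1644 FPKM with vector (0.11). The least abundant were RPS28 at 41.5 FPKM in the ATOH8 and 56.9 FPKM in the vector library, RPL22 at 138 FPKM with ATOH8 and 248 FPKM with vector, RPS26, RPS29 at 213 FPKM with ATOH8 and 340.5 FPKM with vector, and RPL36 at 215 FPKM with ATOH8 and 261 FPKM with vector. The principal transcript annotated for RPS28 is 1326 bases long, and FPKM divide by length. Without the paralogs, the most and the least abundant member were 63.6-fold apart in the ATOH8 library and 40.6-fold apart in the vector library.

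The 47 large subunit genes had a median level of 618 FPKM in the ATOH8 library and 868 FPKM in the vector library, and a median relative log2 fold of -0.09, with 22 above and 25 below the median gene. For the 31 small subunit genes the median level was 749 FPKM in the ATOH8 library and 916 FPKM in the vector library, and the median relative log2 fold was 0.09 (-0.27 as deposited, -0.15 after the GC correction), with 17 above and 14 below. Large subunit genes took 58.7% of the members' FPKM in the ATOH8 library, against 59.0% in the vector library. The large subunit median was thus 0.18 below that of the small subunit on the log2 scale, within folds whose quartiles were -0.29 and 0.19 in the large and -0.17 and 0.30 in the small subunit. The difference was 0.07 after the GC correction. It was 0.02 among the 38 members whose locus spans no other gene, with small nucleolar and other small RNA genes not counted. Its sign thus turned under both, but the difference was -0.11 when the GC correction used the longest transcript of each gene. With 1 library per group it could not be tested.

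**Figure D2:**
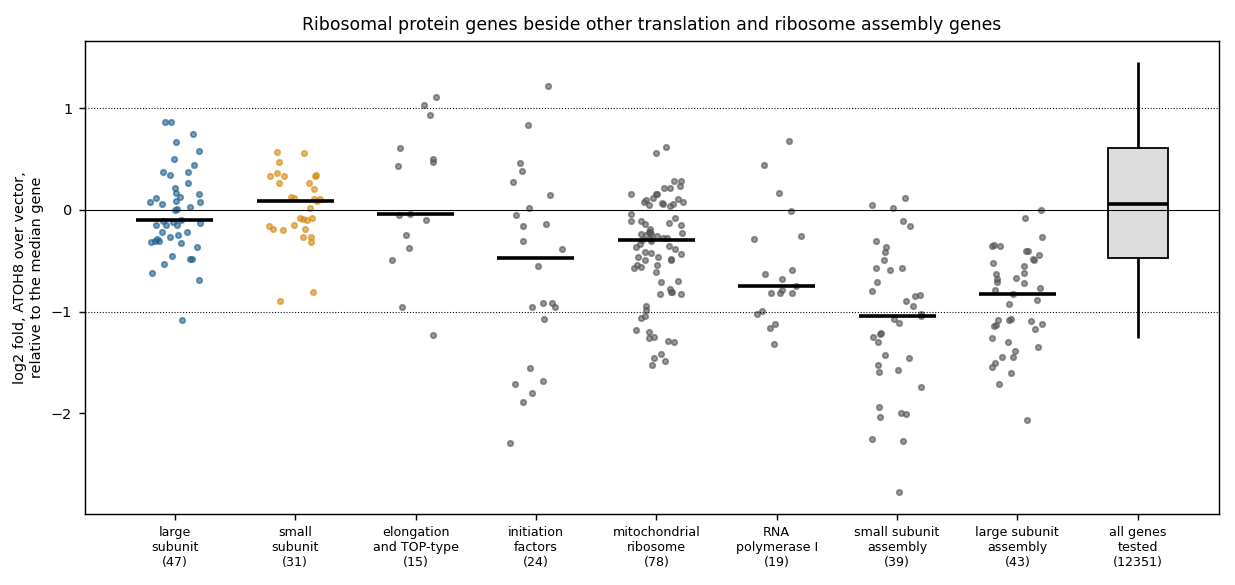
Log2 fold of ATOH8 over vector relative to the median gene for each gene of the 2 ribosomal subunits and of 6 other lists, with horizontal bars at the medians and the number of entries in brackets, and at the right all genes as a box from the 25th to the 75th percentile with whiskers to the 5th and 95th. Members of both subunits lie close around 0, while most ribosome assembly genes lie below 0 and many below the dotted line at -1.

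Of the 78 members 39 lay above the median gene, beside 6545 of all 12351 genes. By place on the ribosome, 3 of the 4 genes of the acidic stalk and its base lay above the median gene, and RPLP2 lay on it. RPLP0, the stalk protein that anchors the P1 and P2 dimers, was at 2137 FPKM in the ATOH8 library and 1635 FPKM in the vector library (0.75), and RPL12 at the stalk base at 1086 FPKM with ATOH8 and 929.96 FPKM with vector (0.58). RPLP1 was at 936 FPKM with ATOH8 and 1035 FPKM with vector (0.22) and RPLP2 at 566 FPKM with ATOH8 and 726 FPKM with vector. Of the 4, 0 were 2-fold apart, and their median was 0.40 relative to the median gene, 0.04 as deposited and 0.26 after the GC correction, where RPLP2 was at -0.54. Among the 4 genes near the peptidyl transferase centre and of the L1 stalk, RPL10, which closes late steps of large subunit maturation, was at 2299 FPKM in the ATOH8 library and 1850.3 FPKM in the vector library (0.67). RPL3 was at 1008 FPKM with ATOH8 and 916 FPKM with vector (0.50), RPL10A, the L1 stalk protein, at 491 FPKM with ATOH8 and 564 FPKM with vector (0.16), and RPL8 at 1308 FPKM with ATOH8 and 1531 FPKM with vector (0.13). All 4 lay above the median gene, with a median of 0.33, which was -0.03 as deposited. After the GC correction the median was 0.03, and 2 of the 4, RPL8 (-0.47) and RPL10A (-0.05), lay below 0.

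All 8 genes of the polypeptide exit tunnel and its rim lay below the median gene, beside 25 of the 47 large subunit genes and 5805 of all 12351 genes. Their median was -0.29, and 1 of them, RPL31, was 2-fold lower on the deposited scale, beside 19.0% of all genes. After the GC correction the median was -0.40, with 7 of the 8 below 0 and RPL17 at 0.02. The median after that correction was also below 0 over the large subunit genes (-0.08) and over all members (-0.12). RPL23A, a docking site of the signal recognition particle, was at 402 FPKM in the ATOH8 library and 704 FPKM in the vector library (-0.45). RPL39, a small protein inside the tunnel, was at 1205 FPKM with ATOH8 and 1941 FPKM with vector (-0.33), RPL26 at 1115 FPKM with ATOH8 and 1723 FPKM with vector (-0.27) and RPL17 at 486 FPKM with ATOH8 and 739 FPKM with vector (-0.25). RPL19 (1183.5 FPKM with ATOH8, 1680.2 FPKM with vector, -0.15) and RPL35 (833 FPKM with ATOH8, 1149 FPKM with vector, -0.10) were nearest to the median gene. RPL5 and RPL11, which form the 5S ribonucleoprotein that can bind the p53 ligase MDM2, were at 459.6 FPKM with ATOH8 and 639 FPKM with vector (-0.11) and at 505 FPKM with ATOH8 and 595 FPKM with vector (0.12). The other large subunit genes among the 5 lowest were RPL6 (540.3 FPKM with ATOH8, 1064 FPKM with vector, -0.62), RPL23, at the face towards the small subunit (609 FPKM with ATOH8, 1133 FPKM with vector, -0.53), and RPL14 (214 FPKM with ATOH8, 384 FPKM with vector, -0.48).

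The 14 head genes of the small subunit had a median of 0.11 (-0.25 as deposited, -0.26 after the GC correction), with 8 above and 6 below the median gene. The 17 body and platform genes had a median of 0.02 (-0.34 as deposited, -0.13 after the GC correction), with 9 above and 8 below. RPS27A in the head and RPS26 on the platform stood apart at the low end, where the next of the 31 small subunit genes was RPS29 (-0.31). RPS15A was at 779 FPKM in the ATOH8 library and 1201 FPKM in the vector library (-0.26). Of 10 genes mutated in Diamond-Blackfan anaemia, an inherited failure of red cell production, 7 lay below and 3 above the median gene, RPS19 among the 3, with a median of -0.15. Among all 78 members, 39 lay below the median gene.

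**Figure D3:**
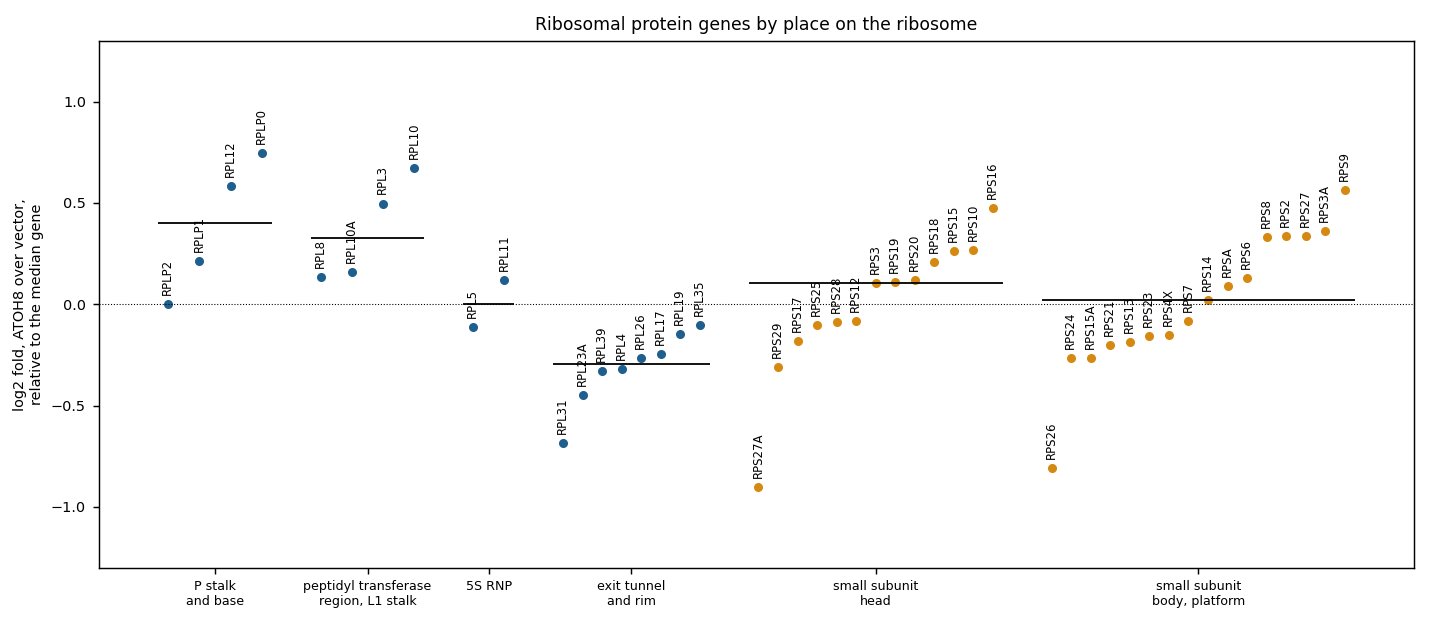
Log2 fold of ATOH8 over vector relative to the median gene for members grouped by their place on the ribosome (2 small subunit genes are not drawn), large subunit groups in blue and small subunit groups in orange, with a line at the median of all genes of each group. Of the 4 stalk genes 3 lie above 0 and RPLP2 on it, the 4 genes of the peptidyl transferase region lie above 0, the 8 exit tunnel genes lie below 0, and RPS27A and RPS26 stand apart in the small subunit; after the GC correction, not drawn, RPL8, RPL10A and RPLP2 were below 0 and RPL17 was above it.

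Folds of the members followed the base composition of their transcripts. Across the 77 members without paralogs, the log2 fold had a Spearman correlation of 0.57 and a Pearson correlation of 0.51 with the GC content of the principal transcript, close to the 0.55 and 0.52 over the 12319 genes with a known transcript. These are descriptions across genes that share both libraries. In the 26 members of lowest GC content (41.9% to 47.6%) the median relative fold was -0.26 and 20 lay below the median gene. In the 26 of middle GC content it was 0.04 with 12 below, and in the 25 of highest GC content (52.3% to 63.1%) it was 0.27 with 6 below. Median GC content was 48.5% for the 46 large and 51.1% for the 31 small subunit genes. After a lowess correction for GC content over all genes, the medians of the 3 groups were -0.04, -0.09 and -0.19. RPL31 (-0.997), RPS26 (-0.90), RPL7 (-0.77) and RPS27A (-0.71) were the 4 lowest members after this correction too, and RPS3A (0.59) and RPL13A (0.55) the 2 highest. The ranking did not hold when the correction used the longest transcript of each gene. RPL7 (-0.53) then stood above RPS28 (-0.63), RPL39L (-0.61) and RPL22 (-0.56), and RPL13A (0.46) stood below RPLP0 (0.54). The part of base composition in the folds was not tested.

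**Figure D4:**
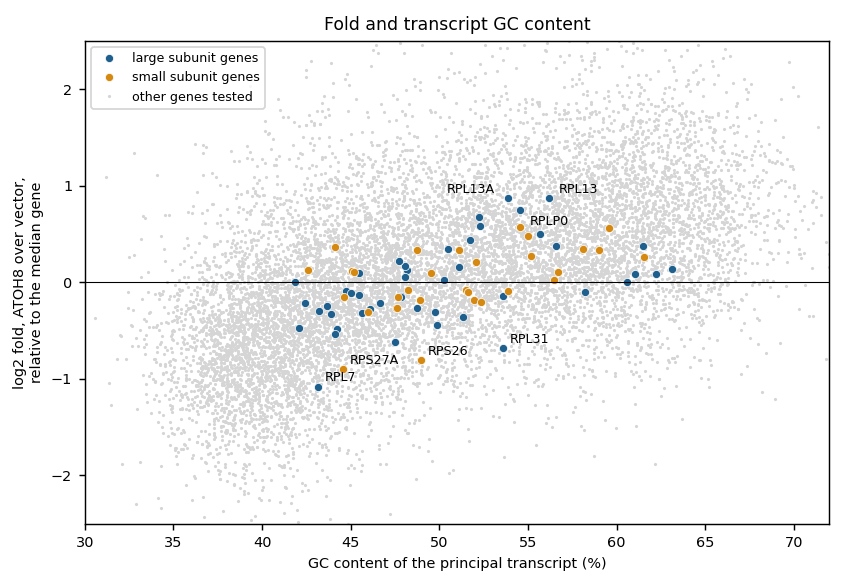
Log2 fold of ATOH8 over vector relative to the median gene against the GC content of the principal transcript, for large subunit genes (blue), small subunit genes (orange) and other genes (grey, those outside the axes not drawn). Folds rise with GC content among members as among other genes, and RPL7, RPS27A, RPS26 and RPL31 lie below members of similar GC content.

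Across the same 77 genes, the Spearman correlation of the fold was 0.43 with mean level and -0.03 with transcript length. With the number of annotated pseudogenes it was -0.23, again as descriptions. Over all genes the correlation was -0.098 with mean level, and -0.094 with transcript length where a transcript was known. The 28 members that hold small nucleolar RNA genes in their introns had a median of 0.07, and 0 of them were 2-fold apart as deposited. The 50 without had a median of -0.08 and held the 4 that were 2-fold lower. As deposited, 19.0% of all genes were 2-fold lower, a larger share than in either group. The 46 members with a TOP run at a listed start had a median of 0.08, and the 16 matched members without it -0.18, with overlapping ranges (-0.90 to 0.87 with it, -0.81 to 0.50 without). Of the 79 genes, 40 had a deposited locus that spans another gene, small RNA genes not counted, so reads could be shared with it.

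The tissue-restricted paralogs were scarce. RPL39L, a testis-enriched relative of RPL39 that is also expressed in tumour lines, was at 15.7 FPKM in the ATOH8 library and 26.4 FPKM in the vector library (-0.36). RPL3L, the muscle form of RPL3, was at 0.084 FPKM with ATOH8 and 0.016 FPKM with vector. Among relatives outside the naming rule, RPL22L1 was at 20.1 FPKM in the ATOH8 library and 93.2 FPKM in the vector library, a relative log2 fold of -1.80, and the authors' deposited table marked it down. RPL22, its paralog, was at 138 FPKM with ATOH8 and 248 FPKM with vector (-0.48). RPL26L1 was at 22.6 FPKM with ATOH8 and 44.1 FPKM with vector (-0.58) and RPL7L1 at 16.8 FPKM with ATOH8 and 28.6 FPKM with vector (-0.38). Of the 8 relatives tested, RPL22L1 alone was 2-fold lower than the median gene and 0 were higher, and FAU (243 FPKM with ATOH8, 277 FPKM with vector, 0.17) and RACK1 (1032 FPKM with ATOH8, 1210.4 FPKM with vector, 0.13), both also ribosomal proteins, were closer to it.

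The genes that build ribosomes give the members' surroundings. The counts that follow are relative to the median gene, by which 9.47% of all genes were 2-fold lower and 12.8% higher. Of 39 entries for 38 small subunit assembly genes, 21 stood 2-fold or more below and 0 above, and the median was -1.05. EMG1 had 2 entries, 1 among the 21 (-1.53) and 1 not (-0.15). After the GC correction 18 were 2-fold lower, 13 of them among the 21, beside 5.84% of the genes with a known transcript. The EMG1 entry among the 21 had no known GC content and so no corrected value. NOP58, of the box C/D snoRNP (6.68 FPKM in the ATOH8 library and 66.5 FPKM in the vector library, -2.78), NOL11 (6.32 FPKM with ATOH8, 44.5 FPKM with vector, -2.28), KRR1 (1.92 FPKM with ATOH8, 16.9 FPKM with vector, -2.25) and DCAF13 (8.44 FPKM with ATOH8, 48.8 FPKM with vector, -2.04) were furthest from it. Of 43 genes on the large subunit assembly list, 19 were 2-fold lower and 0 higher (median -0.83), and after the GC correction 19 were, of which 11 were the same genes. NOC4L (-0.26), also on that list, belongs with small subunit assembly and was 2-fold lower by neither. Lowest on the list were BRIX1 (6.02 FPKM with ATOH8, 36.6 FPKM with vector, -2.06) and DDX18 (8.60 FPKM with ATOH8, 39.4 FPKM with vector, -1.71). The RNA polymerase I list held 19 genes, of which POLR2E, POLR2F, POLR2H, POLR2K and POLR2L encode subunits that are not particular to polymerase I. The median of the 19 was -0.74, and 4 were 2-fold lower and 0 higher. The 4 were TWISTNB, a polymerase subunit gene (1.95 FPKM with ATOH8, 8.46 FPKM with vector, -1.32), UBTF, the upstream binding factor (9.38 FPKM with ATOH8, 28.9 FPKM with vector, -1.16), RRN3 (8.05 FPKM with ATOH8, 24.3 FPKM with vector, -1.12) and TAF1B (4.60 FPKM with ATOH8, 13.6 FPKM with vector, -1.03). After the GC correction UBTF was the only one of these 4 still 2-fold lower, and POLR2F, POLR2L, CD3EAP and POLR2E came to be. Of 14 genes on the list of ribosomal protein chaperones and importers, 4 were 2-fold lower and 0 higher (median -0.53). LTV1, also on the small subunit list, was at 3.75 FPKM with ATOH8 and 23.6 FPKM with vector (-2.01). BCCIP, which escorts RPL23, was at 15.1 FPKM with ATOH8 and 66.8 FPKM with vector (-1.71). GRWD1, which escorts RPL3, was at 8.63 FPKM with ATOH8 and 32.2 FPKM with vector (-1.43). NACA was at 221 FPKM with ATOH8 and 649 FPKM with vector (-1.19). NACA, like BTF3 on the same list, is not particular to ribosomal proteins. On the deposited scale 19.0% of all genes were 2-fold lower and 6.24% higher. By it, 27 small subunit assembly, 28 large subunit assembly, 11 polymerase I and 5 chaperone list entries were 2-fold lower, and 0 of any were higher. No test between these lists and the members was possible with 1 library per group.

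Of 15 elongation factor and other TOP-type genes, 1 was 2-fold lower and 2 higher than the median gene (median -0.03), and after the GC correction 0 were lower or higher (median 0.12). NPM1, a nucleolar chaperone, was at 432 FPKM in the ATOH8 library and 1299.9 FPKM in the vector library (-1.23, and -0.93 after the correction), whereas PABPC1, the poly(A) binding protein, was at 635 FPKM with ATOH8 and 376 FPKM with vector (1.11, then 0.91) and EEF2 at 756 FPKM with ATOH8 and 472 FPKM with vector (1.04, then 0.52). EIF3E was at 92.0 FPKM with ATOH8 and 231 FPKM with vector (-0.96). Of 24 initiation factor genes, 7 were 2-fold lower and 1, EIF4A2 (186 FPKM with ATOH8, 102.3 FPKM with vector, 1.22), was higher (median -0.47). The lowest were EIF5 (14.0 FPKM with ATOH8, 93.0 FPKM with vector, -2.29) and the cap-binding protein gene EIF4E (8.36 FPKM with ATOH8, 43.4 FPKM with vector, -1.88). The list for mTORC1 and TOP mRNA control held 17 genes, of which MYC and MAX encode transcription factors that are not particular to either. Of the 17, 3 were 2-fold lower and 0 higher (median -0.11): TIA1 (4.31 FPKM with ATOH8, 20.8 FPKM with vector), LARP4 (5.24 FPKM with ATOH8, 18.4 FPKM with vector) and RPS6KB1, an S6 kinase gene (7.46 FPKM with ATOH8, 23.9 FPKM with vector). After the GC correction these 3 stood at -0.96, -0.53 and -0.49, none of them 2-fold lower, and the median was -0.35, with EIF4EBP1 (-1.02) 2-fold lower and EIF4EBP2 (1.04) 2-fold higher. Of 78 mitochondrial ribosomal protein genes, which serve the organelle's own ribosome, 12 were 2-fold lower and 0 higher (median -0.30), with 20 above and 58 below the median gene. MRPL42 (14.2 FPKM with ATOH8, 55.1 FPKM with vector, -1.53), MRPL19 (-1.48), MRPL1 (-1.46) and MRPL39 (-1.42) were the furthest. After the GC correction 6 of the 78 were 2-fold lower, beside 5.84% of all genes, 3 of the 6 were among the 12, and MRPL42, MRPL19, MRPL1 and MRPL39 were not. On the deposited scale 2 elongation and TOP-type, 11 initiation factor, 5 mTORC1 and TOP control and 21 mitochondrial ribosomal protein genes were 2-fold lower. In these lists 0 genes were 2-fold higher. Over all genes, 19.0% were lower and 6.24% higher on that scale.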

How the data were processed

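For each of 2 A549 cultures, 1 library per group, the authors deposited FPKM per gene, per the file headers. CASAVA, HISAT2, Cufflinks 2.2.1 and hg38 (GRCh38) appear in the submitters' processing notes, with no role or order; annotation release and strand are not stated there. The authors' deposited table of differential expression covers 2747 genes with, per the file headers, log2 ratios, p-values and q-values. The names of its 2 columns of FPKM per library fit none of the sample labels, so they were left out.

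Libraries were joined on gene identifier (18812 genes with values in both, 2058 in the ATOH8 file alone and 2154 in the vector file alone). Folds are log2 of (FPKM + 1), ATOH8 minus vector, a scale on which changes of low genes come out too small. A mean of at least 1 FPKM was required, and 2-fold was the rule of size; no p-value was computed. GC content, lengths, positions, pseudogenes and small nucleolar RNA genes are those of GENCODE 29 (GRCh38), with the principal transcript matched to RefSeq where there was one. For the GC correction a lowess curve (fraction 0.3, statsmodels 0.14.6, Python 3.11.15) was subtracted, and the code was tested on simulated data. Members, lists and rules were chosen with earlier results of these data known. Named in full were the 5 highest and 5 lowest folds, the 5 most and 3 least abundant genes of each subunit, members 2-fold apart, members of the place lists, and up to 4 genes of largest fold from each other list; other genes were named after their values were seen. Some genes that the rule names are not reported here. Alternatives were other pseudocounts, filters and scalings, the GC correction, and subsets of members.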

Additional observations from a re-analysis of the deposited data

How the results depend on the processing

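No paired analysis was possible because each group holds 1 library. For the same reason no library could be left out. On the deposited scale the median log2 fold was -0.36 over all members, -0.45 for the large and -0.27 for the small subunit, a difference of -0.18. A change of more than 0.1 in a median, of more than 1.5 times in a count or of 1 percentage point in a share was read as a move. Other pseudocounts (0.1 or 5), no filter, a mean FPKM of at least 5, summing entries of 1 symbol, and leaving out the paralogs moved none of these medians or the counts of 4 lower and 0 higher. In the order all, large and small, the medians were 0.0029, -0.094 and 0.090 when centred on the median gene (1 member 2-fold lower), -0.25, -0.35 and -0.17 as TPM, 0.020, -0.078 and 0.11 with upper quartile scaling (1 lower), and -0.11, -0.21 and -0.026 without mitochondrial transcripts (2 lower). With the GC correction they were -0.12, -0.080 and -0.15 (0 lower, difference 0.072), and with the longest transcript, an alternative added after seeing the data, -0.11, -0.14 and -0.024 (0 lower, difference -0.11). Some members had a locus that spans no other gene, small RNA genes not counted. Their medians were -0.25 for both subunits together and -0.24 for the large subunit (1 lower, difference 0.015). The members' share of summed FPKM differed by -1.35 percentage points (ATOH8 minus vector), and by -0.066 without mitochondrial transcripts. The 28 members named for fold or level gave 280 values under 10 settings. Of the 280, 137 stayed the same, 126 moved by more than 0.1, and 17 ended a 2-fold call, for RPL7, RPS26, RPS27A or RPL31. A 2-fold call turned to the opposite direction in 0, but as deposited 4 members had such a call. Folds nearer to 0 could change sign, as for RPL36 (-0.28 as deposited, 0.081 when centred on the median gene). Depth is unknown and the FPKM carry no counting error.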

Other observations

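Among the 105 ribosomal protein pseudogenes listed in both libraries, 35 had a mean FPKM of at least 1, of which 25 lay above and 10 below the median gene. Their summed FPKM over all 105 was 841 FPKM in the ATOH8 library, against 885 FPKM in the vector library, and RPL9P9 alone held 494 FPKM in the ATOH8 library and 527 FPKM in the vector library. RPL9P9 thus stood at a level like that of its parent gene RPL9, a large subunit protein gene at 373 FPKM in the ATOH8 library and 558 FPKM in the vector library, so the split of reads between the gene and this copy leaves the level of RPL9 uncertain. The next were RPS2P5 (73.9 FPKM with ATOH8, 84.4 FPKM with vector) and RPL23AP42 (84.0 FPKM with ATOH8, 69.2 FPKM with vector).

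Read-through genes that join a ribosomal protein gene to its neighbour were also listed. RPS10-NUDT3 was at 3.13 FPKM in the ATOH8 library and 16.6 FPKM in the vector library, a relative log2 fold of -1.73, while RPS10, with which it shares exons, was at 567 FPKM with ATOH8 and 604 FPKM with vector (0.27). RPL17-C18orf32 was at 1.75 FPKM with ATOH8 and 4.90 FPKM with vector (-0.74) and RPL36A-HNRNPH2 at 0.955 FPKM with ATOH8 and 1.99 FPKM with vector (-0.26).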
